A study of Danio rerio with 14 samples.

Results

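Peaks of histone H3 lysine 27 acetylation (H3K27ac) on unplaced scaffolds of the zebrafish genome were taken as every peak whose sequence name in the deposited lists starts with chrUn in the GRCz11 build. They numbered 3184 of 220034 peaks over the 7 lists, or 1.45%, and lay on 481 scaffolds. Names below leave out the chrUn prefix. Of these scaffolds, 439 had names starting with KN and held 2959 of the peaks (92.9%), and 42 had names starting with KZ and held 225. When peaks of the 7 lists that overlapped by at least 1 bp were merged, they formed 1617 regions of the 98262 in the series.

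The tumors were harvested from Tg(lck:IRF4) fish, in which human IRF4, a transcription factor, and the mCherry reporter are driven by the zebrafish lck promoter, a promoter active in lymphocytes. Normal thymus came from Tg(lck:mCherry) fish at 3 months, which carry the reporter alone. Per the methods, cells of both groups were sorted for mCherry. Peak lists of tumors 1, 2, 3 and 4 and of thymus 2, 3 and 5 were available, each called on 1 library. The age and p53 genotype of the tumor fish are not given in the labels. A figure legend of the study calls the thymus samples pooled, while its reporting summary names 4 tumor fish and 3 thymus of normal fish. How many fish each thymus library held is thus not settled. Peak lists carry no read totals, and the reporting summary gives a single depth figure and none per library. The depth of each library is thus unknown. The p-values below measure the spread between these 7 libraries. The labelled tissues were not checked against marker genes here, as peaks were not assigned to genes. The peak names of thymus 2 and thymus 5 carry the word batch2 and those of the 5 other lists do not. What the word stands for is not stated in the labels or the methods, so the 5 lists are not known to form 1 batch. Only thymus 3 can be set against the tumors within 1 batch word, and the smallest exact p of such a comparison is 0.2.

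H3K27ac is placed by acetyltransferases such as p300 and CBP on nucleosomes at active promoters and enhancers, and broad or clustered stretches of it are known from genes that define a cell type. Unplaced scaffolds are assembled stretches of sequence that could not be assigned to a chromosome. They are often rich in repeats and in copies of sequence found elsewhere in the genome.

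The first question was how many peaks each sample had on unplaced scaffolds. There were 307, 557, 442 and 231 such peaks in tumors 1, 2, 3 and 4, and 525, 581 and 541 in thymus 2, 3 and 5. Tumors 1, 3 and 4 lay below every thymus sample, while tumor 2 lay among them. Tumors averaged 384 ± 144 such peaks (SD, n = 4) and thymus samples 549 ± 28.8 (SD, n = 3), which did not differ beyond the spread between samples (exact two-sided permutation p = 0.171). With 35 splits of the 7 lists into 4 and 3, the smallest p this test allows is 0.0286. The tumor mean was lower by 165 peaks, and with only peaks of at least 128 bp the difference was -7.33 peaks (exact permutation p = 0.943).

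Set against the length of each list, the difference was smaller. Unplaced scaffolds held 1.16, 1.70, 1.46 and 1.17% of the peaks of tumors 1 to 4, and 1.66, 1.44 and 1.39% of those of thymus 2, 3 and 5. The group means were 1.37 ± 0.26% (SD, n = 4) and 1.5 ± 0.142% (SD, n = 3), and the groups overlapped (exact permutation p = 0.571). Of the covered length, unplaced scaffolds held 1.09, 1.76, 1.19 and 0.951% in the tumors and 1.75, 1.23 and 1.25% in thymus. Tumor 2 and thymus 2 stood highest on both scales, and the group difference in covered length did not pass either (exact permutation p = 0.486).

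Peaks on unplaced scaffolds had a lower median width in each thymus list than in any tumor. The unplaced median width was 414, 324, 298 and 253 bp in tumors 1 to 4, and 186, 186 and 220 bp in thymus 2, 3 and 5. Tumors averaged 322 ± 67.8 bp (SD, n = 4), thymus samples 197 ± 19.6 bp (SD, n = 3), and the exact permutation p was 0.0571. The narrowest peak in a list was 128, 127, 117 and 72 bp in the tumors and 50, 53 and 54 bp in thymus, so the lists also had different lower limits. Peaks exactly at that limit made up 1.63 to 5.57% of unplaced peaks in tumors and 6.65 to 9.64% in thymus. On chromosomes they made up 2.13 to 5.32% in tumors and 4.60 to 6.34% in thymus, ranges that overlap. The part of the lower limit in the width difference was not tested. With only peaks of at least 128 bp, the tumor mean was 34.3 bp above the thymus mean (exact permutation p = 0.343), and with the 19809 widest peaks of each list 37.9 bp above it (p = 0.629, same exact test).

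Within a list, the median unplaced peak was narrower than the median peak on chromosomes 1 to 25 in 6 of 7 lists. The median on chromosomes was 453, 338, 421 and 339 bp in tumors 1 to 4 and 182, 210 and 222 bp in thymus 2, 3 and 5. The unplaced median was lower by 39, 14, 123 and 86 bp in the tumors, and by 24 and 2 bp in thymus 3 and 5, while in thymus 2 it was 4 bp higher. The mean difference was -40.6 bp (SD 47.1, n = 7 lists), with an exact sign-flip permutation p of 0.0469 and an adjusted p of 0.0938 over the 2 measures compared in this way. With peaks of at least 128 bp only, it was -28.3 bp (exact sign-flip p = 0.234). Without thymus 2, the list of the opposite sign, it was -48 bp (exact sign-flip p = 0.0313). That is the smallest p the test allows for 6 lists, so the choice of list fixed it. With any other list left out, the exact sign-flip p was 0.0625 to 0.0938. The tumor gaps averaged -65.5 bp and the thymus gaps -7.33 bp, a difference of -58.2 bp that did not pass its own test (exact permutation p = 0.143). In the 8 group comparisons of tumor with thymus made for this class of peaks, adjusted p (Benjamini-Hochberg over exact permutation tests) ran from 0.457 to 0.914.

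**Figure D1:**
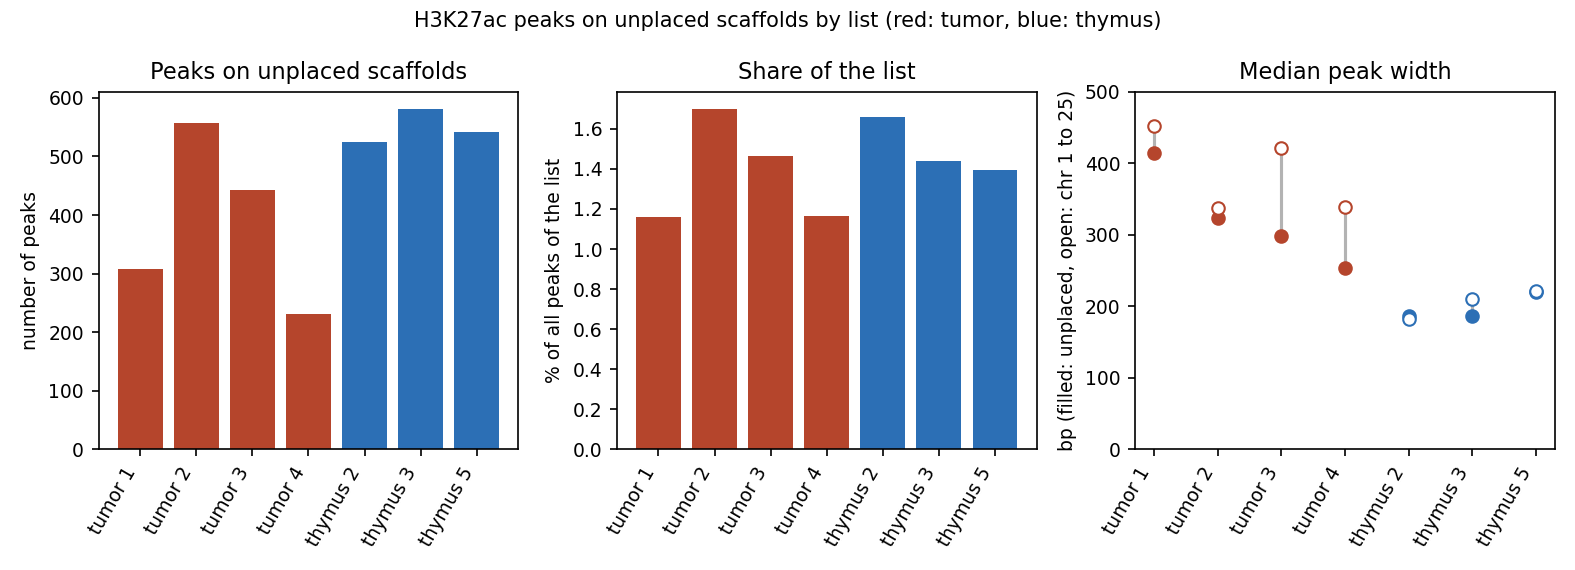
Number of H3K27ac peaks on unplaced scaffolds per list (left), their share of all peaks of the list in % (middle) and their median width in bp (right; filled points, unplaced scaffolds; open points, chromosomes 1 to 25). Each bar or point is 1 list. The 4 tumors (red) had median unplaced widths of 253 to 414 bp and the 3 thymus samples (blue) 186 to 220 bp. On chromosomes the medians were 338 to 453 bp and 182 to 222 bp. The shares of the list overlapped.

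Peaks of at least 1000 bp were a minority in every list. They made up 10.4, 10.6, 10.2 and 5.63% of unplaced peaks in tumors 1 to 4 and 5.33, 6.88 and 11.1% in thymus 2, 3 and 5. The widest lay on KN149953v1 in 5 lists, at 5619 bp in tumor 1, 4114 bp in tumor 3, 4153 bp in tumor 4, 4364 bp in thymus 3 and 4342 bp in thymus 5. In thymus 2 it lay on KN150486v1, at positions 2211 to 4351, a width of 2141 bp.

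Tumor 2 differed from the other lists in its widest peaks. It held 4 peaks wider than the 5619 bp of tumor 1, on KN150270v1 (11976 bp, positions 10248 to 22223), KN150031v1 (9301 bp, from position 1), KN150187v1 (8478 bp, positions 10702 to 19179) and KZ116056v1 (5848 bp, from position 1). They summed to 35.6 kb, or 11.4% of the length covered on unplaced scaffolds in tumor 2. On the same 4 scaffolds the other lists held 5 peaks of tumor 1 on KN150270v1, covering 1669 bp, and 6 peaks of thymus 2 on KN150031v1, covering 1240 bp, and none besides. Peaks that started at the first base of a scaffold numbered 6 in tumor 2, 1 each in tumors 1 and 3, and 0 in the 4 remaining lists.

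The second question was how often the same place was called in several samples. Of the 1617 unplaced regions, 1184 (73.2%) were called in 1 list, against 71.4% of 81921 regions on chromosomes. Tumor 2 alone accounted for 291 of them, thymus 3 for 243, thymus 2 for 217, thymus 5 for 201, tumor 3 for 151, tumor 1 for 42 and tumor 4 for 39. At the other end, 76 unplaced regions (4.70%) were called in all 7 lists, below the 8.57% on chromosomes and the 8.12% over all regions of the series. This order held under the alternatives tried, with 5.77% against 9.90% for peaks of at least 128 bp and 8.07% against 14.4% for the 19809 widest peaks of each list.

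Peak by peak, recurrence varied between samples. The share of unplaced peaks that lay in a region of another list was 86.3, 47.8, 65.8 and 83.1% in tumors 1 to 4, and 58.7, 58.2 and 62.8% in thymus 2, 3 and 5. On chromosomes it was 81.9, 60.3, 74.0 and 86.7%, and 62.2, 61.7 and 63.3%. The unplaced share was lower in 6 of 7 lists, by a mean of -3.91 percentage points (SD 5.41), and this did not pass the exact sign-flip permutation test (p = 0.141). Without tumor 1, the list of the opposite sign, it was -4.96 points (exact sign-flip p = 0.0313). With all 6 remaining lists of 1 sign, that is the smallest p the test allows, so the choice of list fixed it. Leaving out any other list gave an exact sign-flip p of 0.0938 to 0.219. Each share depends on the peaks of the other lists, so the differences are not fully independent, which these tests assume. Tumor 2 had the lowest unplaced share and tumor 1 the highest.

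**Figure D2:**
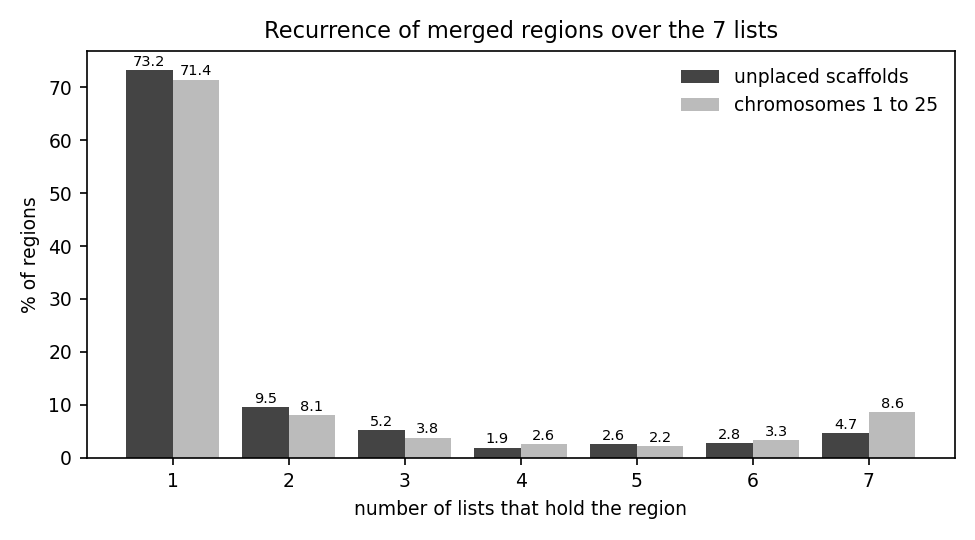
Share of merged regions (y axis, %) called in 1 to 7 of the H3K27ac lists (x axis), on unplaced scaffolds (dark bars) and on chromosomes 1 to 25 (light bars). Regions of a single list made up 73.2% and 71.4%, and regions of all 7 lists 4.70% and 8.57%.

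Recurrent peaks were the wider ones in every list, on unplaced scaffolds as on chromosomes. In tumors 1 to 4 the median width was 236.5, 244, 159 and 102 bp for peaks of that list alone, and 460, 423, 497 and 313 bp for peaks found in another list too. In thymus 2, 3 and 5 the values were 109, 100 and 108 bp, and 272.5, 317 and 406 bp. On chromosomes the medians were 128 to 213 bp for peaks of 1 list and 240 to 602.5 bp for peaks of several lists. A wider peak has more room to overlap another, so this is a description and no test was made. The overlap of covered bases between 2 lists, measured as the Jaccard index (shared bases over all bases covered by either), was lower on unplaced scaffolds than on chromosomes in 21 of 21 pairs. Its mean was 0.281 for 6 tumor pairs, 0.305 for 3 thymus pairs and 0.238 for 12 pairs of a tumor with a thymus, against 0.392, 0.350 and 0.307 on chromosomes. Pairs share lists, so these means are descriptions. The highest unplaced value was 0.450, between thymus 3 and thymus 5, and the lowest was 0.129, between tumor 2 and thymus 2.

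The regions of all 7 lists were ranked by width, taking each list's percentile of peak width and then the median over the lists, and the first 5 are described. The first, on KN149953v1 at positions 16926 to 22553, was covered over 5619, 4786, 4394 and 4466 bp in tumors 1 to 4 and over 593, 4482 and 4342 bp in thymus 2, 3 and 5. Thymus 2 thus covered far less of it than the 6 other lists. The second, on KN150487v1 at 29504 to 33252, was covered over 1506, 2374, 3078 and 1693 bp in the tumors and 2857, 3160 and 3323 bp in thymus. The third, on KN150699v1 at 7228 to 9553, was covered over 1595 to 1788 bp in tumors and 2139 to 2278 bp in thymus. KZ115962v1 at 5597 to 8065 and KN150486v1 at 2089 to 4833 followed, with 1012 to 1873 and 834 to 1934 bp in tumors and 1691 to 2469 and 2141 to 2512 bp in thymus. The tumor and thymus ranges did not overlap on KN150699v1 and KN150486v1 and overlapped on the 3 others. These 5 were picked by width, and overlap was not counted over the other regions of all 7 lists or on chromosomes. The ranges are thus descriptions.

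The third question was which unplaced regions were called in 1 group only. In all 3 thymus lists and no tumor there were 26 regions (1.61% of the unplaced regions), against 0.652% on chromosomes and 0.633% over the series. In all 4 tumors and no thymus list there were 2 (0.124%), against 0.474% on chromosomes and 0.473% over the series. Fisher's exact test on presence and absence gave 28 unplaced regions with unadjusted p below 0.05, which are these same 28. It gave 0 after Benjamini-Hochberg adjustment over all regions (Fisher's exact test, smallest adjusted p = 0.785). The smallest p that Fisher's exact test allows for 4 against 3 lists is 0.0286. Regions called in 1 list, 71.4% of those in the series, cannot reach it. Too few regions were left for any to pass adjustment, so the 0 says nothing about group differences. With only peaks of at least 128 bp, 16 thymus-only regions were left (1.40%, against 0.543% on chromosomes) and 5 tumor-only regions (0.437%, against 0.698%). The 19809 widest peaks of each list gave 16 (2.08%, against 0.763%) and 6 (0.781%, against 0.992%). A further setting dropped every region that some list with a peak there covered by less than 50%, which left 1289 unplaced regions. Of these, 3 were thymus-only (0.233%, against 0.140% on chromosomes) and 0 tumor-only (against 0.125%). Thymus 3 alone shares the tumors' lack of a batch word. Set against it, 7 regions had a peak in each tumor and none in thymus 3 (0.433%, against 0.863% on chromosomes). Another 305 had a peak in thymus 3 and in no tumor (18.9%, against 18.2%). Of these 305, 243 were called in thymus 3 and no other list (on chromosomes 12751 of 14938). Unlike the rule of the 26 regions, this one needs a call in 1 thymus list only.

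Each sample left out in turn changed these counts. The thymus-only count rose to 49 without thymus 2, 40 without thymus 3 and 39 without thymus 5, and was 27 to 32 when a tumor was left out. The tumor-only count was 11 without tumor 4, 6 without tumor 1, 5 without tumor 2, tumor 3 or thymus 3, 7 without thymus 5 and 2 without thymus 2. With a list left out, fewer calls or fewer absences are needed, so both counts could hardly fall. In each of these 7 settings the unplaced share of thymus-only regions lay above that on chromosomes, and the share of tumor-only regions below it.

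The 26 thymus-only regions lay on 15 scaffolds, and 17 of them on 6: 5 on KN150122v1, 4 on KZ116021v1 and 2 each on KN150319v1, KN150608v1, KN150630v1 and KN150055v1. The spread of all unplaced regions over scaffolds was not set beside this, so it is a description. Regions on 1 scaffold are neighbours in sequence and are not independent of each other. Their median covered length was 150 bp in thymus 2 (50 to 730), 359.5 bp in thymus 3 (71 to 1492) and 433 bp in thymus 5 (105 to 1482). Thymus 5 gave the widest coverage in 15 of the 26, thymus 3 in 9 and thymus 2 in 2.

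By the same width percentile, the leading thymus-only region was on KN150630v1 at 44076 to 45567, covered over 730, 1492 and 1329 bp in thymus 2, 3 and 5. On KN150319v1, positions 14671 to 15658 were covered over 571, 988 and 906 bp, and a neighbouring region at 13602 to 14358 over 265, 727 and 732 bp. On KN150055v1, positions 31096 to 32225 were covered over 172, 970 and 1130 bp. In these 4 places thymus 2 was the narrowest list. The region on KN150608v1 at 34483 to 36172 was covered over 552, 1438 and 1482 bp, and that on KN149882v1 at 1400 to 3106 over 66, 948 and 1458 bp. The latter rests in thymus 2 on a peak that is narrower than the lower limit of any tumor list.

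The 2 tumor-only regions were each covered in every tumor with widely differing lengths. On KN150193v1, positions 8015 to 9541 were covered over 531, 1527, 470 and 811 bp in tumors 1 to 4. On KN150404v1, positions 8490 to 9318 were covered over 360, 829, 153 and 263 bp. Tumor 2 was the widest of the 4 in both.

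**Figure D3:**
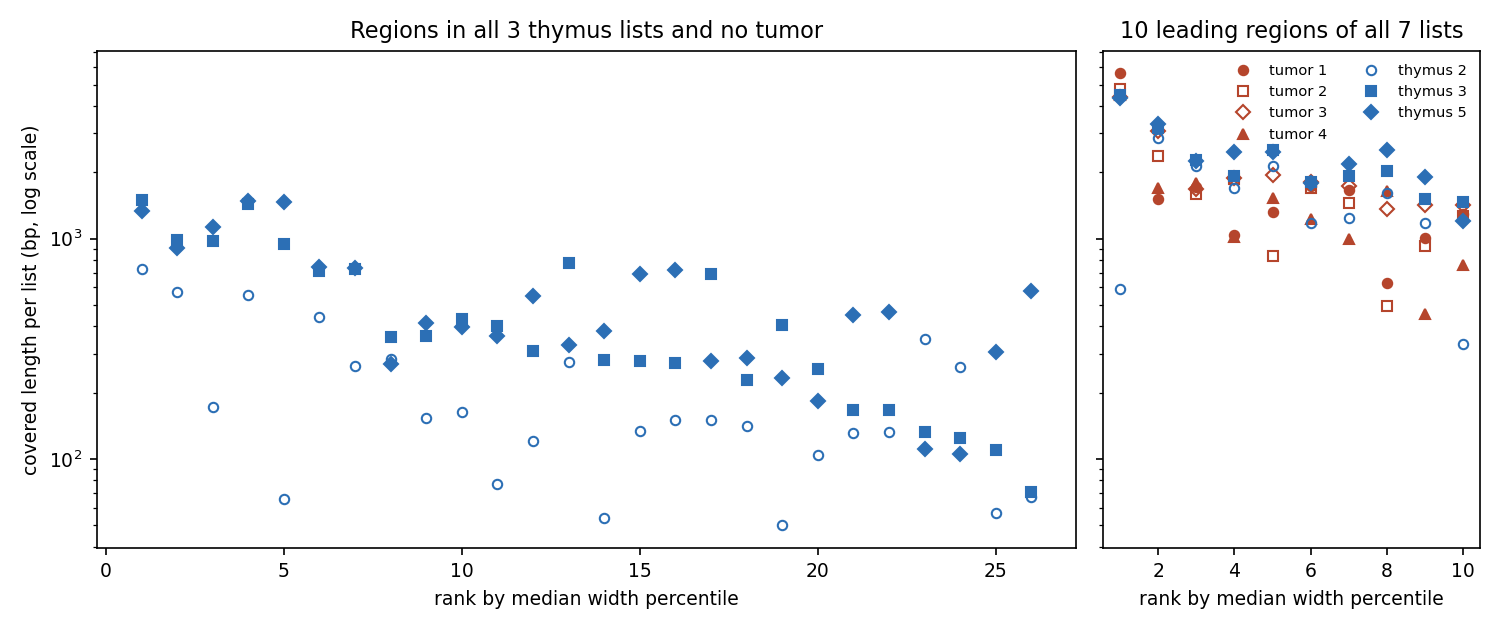
Covered length per list (y axis, bp, log scale) of the 26 unplaced regions called in all 3 thymus lists and no tumor (left) and of the 10 leading unplaced regions called in all 7 lists (right), ranked by median within-list width percentile (x axis). Each marker is 1 list (red, tumor; blue, thymus); on the left the medians were 150 bp in thymus 2, 359.5 bp in thymus 3 and 433 bp in thymus 5.

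The fourth question was how far unplaced peaks gathered on few scaffolds. A peak was found on 174, 247, 233 and 131 scaffolds in tumors 1 to 4 and on 172, 218 and 212 in thymus 2, 3 and 5 (means 196 and 201, exact permutation p = 0.914). The 10 fullest scaffolds of each list held 23.5, 23.0, 20.8 and 27.7% of its unplaced peaks in tumors, and 30.5, 21.2 and 22.0% in thymus (exact permutation p = 0.743). Thymus 2 was the most concentrated list. Scaffolds with a single peak made up 55.5 to 64.9% of the scaffolds in tumor lists and 40.8 to 41.9% in thymus lists, and the groups did not overlap. This share was not tested, nor computed for other sequences. It was not repeated at equal list length or with a common minimum width, in both of which the lists differ. Over the 7 lists, 210 scaffolds (43.7%) had a peak in 1 list and 64 (13.3%) in all 7, and these 64 held 33.9 to 57.1% of the unplaced peaks of each list.

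The 10 scaffolds with the highest mean share of unplaced peaks held 19.8% of them on average, and fell into different patterns. Peak numbers were not set against scaffold length, which was not at hand. Among the 10, the last position covered by a peak ran from 26093 on KN150699v1 to 362874 on KN149696v2. KN149953v1 led with 19, 17, 13 and 16 peaks in tumors 1 to 4 and 6, 20 and 16 in thymus 2, 3 and 5. Thymus 2 again had few peaks there. KN150699v1 held 12, 7, 6 and 10 peaks in tumors and 15, 19 and 18 in thymus, so every thymus list held more than every tumor. Its share of the list did not pass the test (exact permutation p = 0.343), and it covered 4458 to 11656 bp in tumors and 6009 to 13039 bp in thymus, ranges that overlap. KN150703v1, KN149790v1, KN150487v1, KN150529v1 and KZ116034v1 were called in all 7 lists with 2 to 7 peaks in tumors and 7 to 13 in thymus. Their shares of the list did not pass the test either (exact permutation p 0.114 to 0.714), and on each the covered lengths of the groups overlapped. Over all 1411 sequences with a peak, the unplaced scaffolds included, 10.1% had more peaks in every thymus list than in any tumor.

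On the 3 other leading scaffolds peak numbers were uneven, with 1 or 2 samples well above the rest. KN149696v2 held 27 peaks in tumor 2, covering 10225 bp, and 5, 7 and 3 in tumors 1, 3 and 4 and 5, 14 and 11 in thymus 2, 3 and 5. KN149693v1 held 40 peaks in thymus 2 and 17 in tumor 3, against 2, 1 and 4 in tumors 1, 2 and 4 and 0 in thymus 3 and 5. KN149692v1 held 36 peaks in thymus 2 and 18 in tumor 3 and none in the 5 remaining lists. The 2 scaffolds were covered over 20874 and 16499 bp in thymus 2 and over 4469 and 4691 bp in tumor 3. They also held most of the regions found in thymus 2 and tumor 3 alone. There were 32 such regions on unplaced scaffolds, 16 on KN149692v1 and 13 on KN149693v1, and this was the most frequent pair of lists among the 154 regions called in 2 lists (20.8%). On chromosomes the same pair gave 3.57% of 6603 such regions, and the most frequent pair was thymus 3 with thymus 5 (18.3%). Thymus 2 and tumor 3 differ in tissue and in batch word.

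A scaffold-by-scaffold test set each scaffold's share of the list in tumors against thymus, over all 1411 sequences with a peak. These were the 481 unplaced scaffolds and 930 others, most of them neither unplaced nor among chromosomes 1 to 25. The smallest possible exact permutation p, 0.0286, was reached by 81 sequences (5.74%), of which 15 were among the 481 unplaced scaffolds (3.12%). None passed Benjamini-Hochberg adjustment of these exact p-values (smallest adjusted p = 0.498), which would have needed 807 sequences at that p. Of the 15, 11 had the higher share in thymus (2.29% of the unplaced scaffolds) and 4 in tumors (0.832%), both below the 4.82% and 0.921% of all sequences in the same direction. KN150137v1, KN150231v1 and KN150506v1 were among the 4, and each held 1 peak in 6 lists and 0 in thymus 2, so that their shares followed the length of the lists. In plain numbers of peaks, 20 unplaced scaffolds (4.16%) had more peaks in every thymus list than in any tumor, against 10.1% of all sequences, and 5 (1.04%) the reverse, against 1.06%. Scaffolds that separate the groups were thus no more frequent among unplaced scaffolds than among all sequences, a set that includes the unplaced scaffolds. It is not a comparison with the chromosomes. To separate them, a scaffold needs a peak in every list of 1 group. Of the unplaced scaffolds, 210 had a peak in 1 list and 82 in 2 lists, so these could not. The other sequences were not counted in this way, so the shares are not matched for sparse sequences.

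The 6 scaffolds with more than 1 thymus-only region, named after their values were seen, all belonged to the 11. KN150122v1 held 12, 16 and 16 peaks in thymus 2, 3 and 5 against 1, 0, 0 and 1 in tumors 1 to 4, and covered 1727, 3772 and 5165 bp against at most 171 bp. KN150608v1 held 13, 7 and 8 peaks against 2, 0, 1 and 0. KN150319v1 held 6, 10 and 9 against 3, 1, 3 and 1. KZ116021v1 and KN150055v1 had no peak in any tumor and held 4, 6 and 5 and 2, 2 and 4 peaks in thymus, and KN150630v1 held 8, 7 and 9 against 1 peak of tumor 3. On all 6 the groups did not overlap. Their thymus-only regions entered their choice, so these counts are descriptions.

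The 5 scaffolds with the reverse pattern held few peaks. KN150477v1 had 1, 9, 3 and 2 peaks in tumors 1 to 4, KN149687v1 had 1, 7, 2 and 2, and neither had one in thymus. KN150449v1, KN150404v1 and KN150193v1 held 1 to 3 peaks in each tumor and 0 in each thymus list. On the first 2, tumor 2 covered 3884 and 3530 bp and no other tumor more than 1148 bp.

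**Figure D4:**
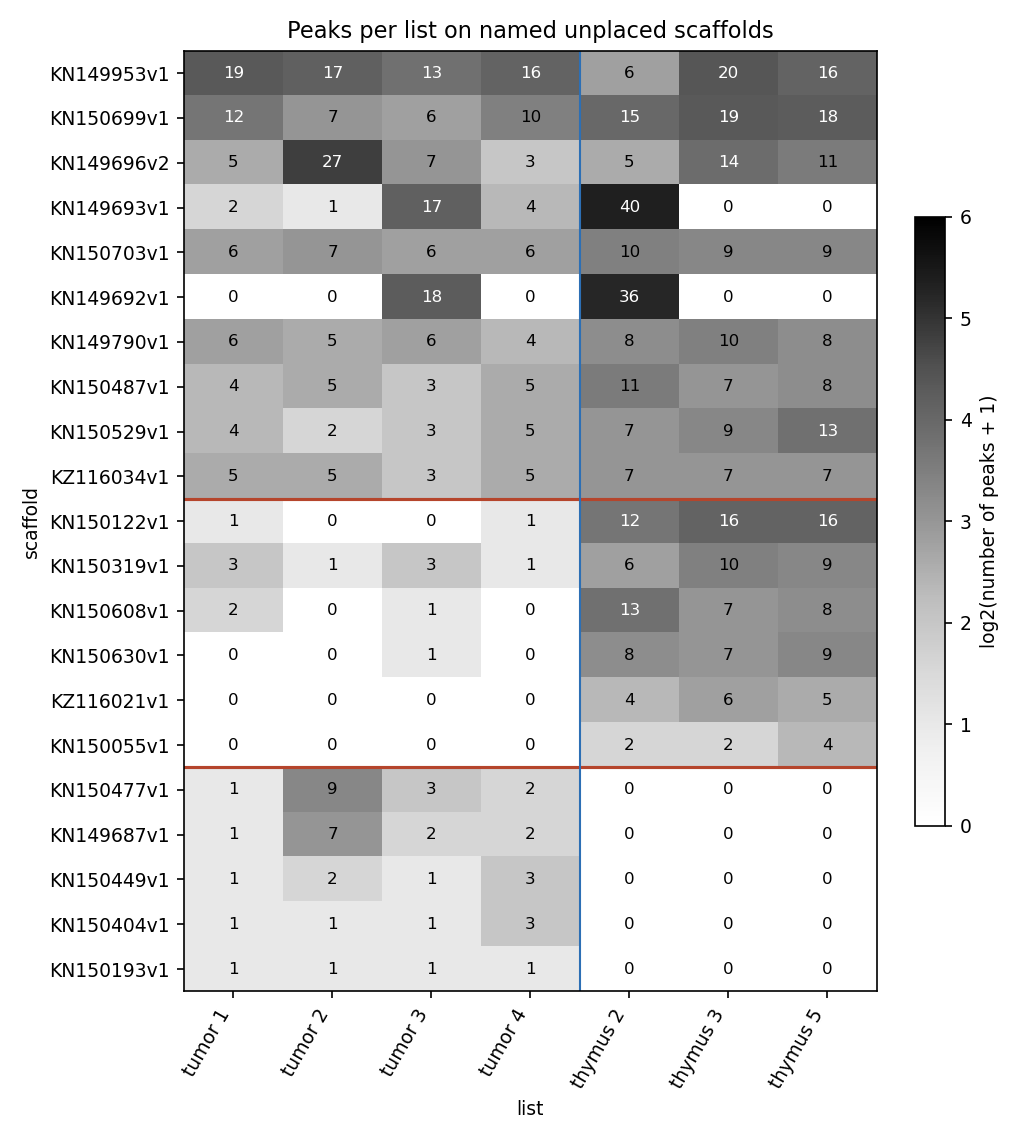
Number of peaks per list (columns) on named unplaced scaffolds (rows), with shading on a log2(number + 1) scale. The top block holds the 10 scaffolds with the highest mean share of unplaced peaks, the middle block the 6 with more than 1 thymus-only region and the lower block the 5 with more peaks in every tumor than in any thymus list; KN149692v1 holds 36 peaks in thymus 2 and 18 in tumor 3 and none elsewhere.

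Scores were present in the list of tumor 1 alone, so they have no replicate check. The median fold enrichment over background was 3.65 for the 307 unplaced peaks and 3.49 for 22069 peaks on chromosomes, and the median −log10 p was 7.09 and 6.74. Unplaced peaks in regions of all 7 lists had a median fold enrichment of 4.61 (88 peaks), and those of tumor 1 alone 3.00 (42 peaks). On chromosomes the same classes had 4.40 and 2.82. The leading region on KN149953v1 reached 7.72, and the tumor-only regions on KN150193v1 and KN150404v1 reached 5.92 and 3.47.

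For 6 scaffolds the study's gene annotation of H3K27ac regions gave a gene name. They were chosen after their values were seen and no test was made on them. KN150699v1, the second leading scaffold, carries creg1, which encodes a secreted glycoprotein of the endosomal and lysosomal system. KN150015v1, with pdcl3, a gene for a phosducin-like co-chaperone, was covered over 746, 762, 1405 and 1318 bp in tumors 1 to 4 and 1243, 1103 and 1271 bp in thymus 2, 3 and 5. KN149816v1, with slc39a3, a zinc transporter gene, was covered over 811, 694, 914 and 799 bp and 989, 607 and 951 bp. Both were called in all 7 lists with overlapping groups. KN149883v1, with ndufa13, a subunit gene of mitochondrial complex I, was covered over 837, 618, 788 and 645 bp in tumors and over 0, 252 and 523 bp in thymus. KN150544v1, with znf830, a zinc finger gene, was covered over 611, 287, 722 and 473 bp and over 0, 210 and 985 bp. On these 2 scaffolds thymus 2 was the list with no peak. KN150570v1, with thrsp, known in mammals for its role in lipogenesis, was covered only in tumor 2 (2199 bp) and thymus 2 (1221 bp).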

How the data were processed

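Peak lists of H3K27ac ChIP-seq from 4 tumors and 3 thymus samples were used, and 7 input libraries were not used here. As the labels and methods state, the authors mapped 50 bp single-end reads to GRCz11 (Bowtie2), discarded duplicates (SAMtools) and made broad calls with MACS2 (2.1.1.2016030), library by library, over whole cell lysate. The deposited start and end columns were used in all lists. The deposited tumor 1 list also gives a score, a fold enrichment (a ratio) and −log10 p and q per peak. The score was not used in any result.

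Covered length was computed after merging within a list. Regions were the union of the lists merged at an overlap of 1 bp. Group means were compared by exact two-sided permutation tests (35 splits), and unplaced with chromosomal values by exact sign-flip tests (128 patterns), with Benjamini-Hochberg adjustment. Scaffolds were tested over all 1411 sequences. Named scaffolds were the 10 with the highest mean share of unplaced peaks, and named regions the 5 per class with the highest median width percentile. The members and lists were chosen with earlier results of these data known. Alternatives were a minimum width, equal list lengths, 50% coverage, other scaffold scales, and leaving out scaffolds or samples. Removal of named scaffolds, the lists without the batch word, and widths by recurrence were added after seeing the data. No GRCz11 sequence or annotation file was used here, and 6 gene names come from the study's supplementary annotation. Tests ran in SciPy 1.17.1 with NumPy 2.4.6 under Python 3.11.15 and plots in matplotlib 3.10.9, and the code was tested on simulated lists.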

Additional observations from a re-analysis of the deposited data

Results flagged for a closer look

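For the 4 tumors, 20 values were tested for a single distant sample, and 2 had one, where chance gives about 1 in 20. Both were shares on scaffolds chosen for a high mean share in these same lists, so the 2 cannot be set against that rate. Tumor 2 had 0.0824% of its list on KN149696v2, far above tumors 1, 3 and 4. Tumor 3 had 0.0596% of its list on KN149692v1, where the 3 other tumors had no peak. With these 3 tied, the flag of tumor 3 was certain.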

How the results depend on the processing

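Apart from the scores of tumor 1, the lists give positions only, so depth and signal could not be taken from them. The study's own differential binding analysis of tumors against thymus was not used for these results. The filter on −log10 p was not run, since 1 list holds it. Over 14 results, 94 alternatives other than leaving out a sample gave 75 values in the same direction, on the same side of the threshold and, for counts, within 1.5 times. The scaffold test could hardly pass adjustment in any setting, so its lack of calls says nothing of stability. The cause of the other moves was not tested. All differences below are tumor minus thymus unless stated.

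With peaks of at least 128 bp, peak numbers differed by -7.33 in place of -165, scaffolds with a peak turned from -4.42 to 34.3 and the recurrent share to -0.739 percentage points, the width gap to chromosomes was -28.3 bp, and there were 5 tumor-only and 16 thymus-only regions. With the 19809 widest peaks the values were -23.1 peaks, 23 scaffolds, 6 and 16 regions, a recurrence gap to chromosomes of -4.75 points (exact sign-flip p = 0.0313) and 0.00168% on KN150703v1. Without KN149953v1 that gap was -4.79 points (exact sign-flip p = 0.0469). The 50% rule left 0 tumor-only, 3 thymus-only and 6 all-list regions. Without KN149692v1 and KN149693v1 the share on the 10 fullest scaffolds turned to 1.16 points. In the lists without the batch word it was 2.57 points and the covered share 0.0219 points. The width gap to chromosomes was -57.2 bp there (exact sign-flip p = 0.0625, the smallest possible). After merging these 5 lists anew, 7 of 1212 regions were tumor-only and 321 thymus-only (26.5%, against 26.1% on chromosomes). The thymus-only count rests on 1 thymus list here. The shares of KN149693v1, KN150703v1 and KN149692v1 were 0.0218, 0.00124 and 0.0149 points.

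Leaving out 1 sample gave -0.234 to -0.0447 points for the share of peaks, -21.3 to 17.3 scaffolds with a peak, -0.333 to 0.00766 points of covered length, -2.50 to 2.15 points on the 10 fullest scaffolds, 2 to 11 tumor-only, 27 to 49 thymus-only and 75 to 98 all-list regions. Fewer lists loosen the group-only rules, so the tumor-only and thymus-only counts could hardly fall. The width gap to chromosomes ran from -48 to -26.8 bp (exact sign-flip p 0.0313, without thymus 2, to 0.0938). The recurrence gap ran from -5.66 to -3.66 points (exact sign-flip p 0.0313, without tumor 1, to 0.219). The shares ran from -0.00721 to 0.0152 on KN149696v2, -0.0414 to 0.0218 on KN149693v1, -0.0044 to 0.000799 on KN150703v1, -0.042 to 0.0149 on KN149692v1 and -0.00447 to 0.00063 points on KZ116034v1.

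Tumor and thymus share 2 replicate numbers, from different fish, and the deviations of same-numbered samples correlated at -0.15 and -0.519, so the numbers do not pair them. The replicate block gave 0.0317 points for the share of peaks, 45 scaffolds and -1.62 points for the recurrent share, with a smallest possible exact p of 0.5.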
